A study of Homo sapiens with 3 samples.

Results

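The genes described here encode the protein folding machinery of the endoplasmic reticulum (ER) and the unfolded protein response (UPR), its stress pathway. They were a list of 34 gene symbols set by function, drawn up with earlier results of these data known, and all 34 were found under their current symbols among the 24254 symbols of the deposited table. The libraries came from LX-2, a cultured line of human stellate cells, the collagen-producing cells of the liver, which is a single line and not stellate cells of a liver. 1 library was made from cells given vehicle, 1 from cells given 50 ng/mL recombinant human FGF19 (rhFGF19), an endocrine growth factor, and 1 from cells given 100 ng/mL. The series text gives 24 h of stimulation, whereas the sample descriptions give 72 h and 73 h and exchange the rhFGF19 doses. The doses used here follow the sample titles, and the libraries are called rhFGF19 50 and rhFGF19 100 after them. Each condition had 1 library, so no comparison had a replicate check, no test was run, and every value describes these 3 libraries. In bulk RNA, a gene expressed by fewer cells and a gene expressed less in each cell cannot be told apart.

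Secreted and membrane proteins enter the ER through the translocon and fold there with the help of chaperones, disulfide isomerases and lectins, and proteins that fail to fold are returned to the cytosol for degradation. When unfolded proteins accumulate, the sensors IRE1 (gene ERN1), PERK (gene EIF2AK3) and ATF6 switch on the UPR, which raises transcription of many chaperone and degradation genes. Activated stellate cells secrete large amounts of collagen and other matrix proteins, which are made in the ER.

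Many UPR target promoters carry the ER stress response element (ERSE), a CCAAT box set apart by a fixed spacer from a CCACG box that ATF6 and XBP1 can bind. The promoter windows of 32 members (GRCh38.p14, RefSeq), from 250 bases before to 50 after each gene start, were searched on both strands. PDIA3 and DERL1 were not among them. The ERSE letters, CCAAT and CCACG with any 9 bases between them, stood in the windows of 8 of the 32 members, against 25 of all 27305 symbols (0.0916%). The shorter ERSE-II letters, ATTGG and CCACG with any 1 base between them, stood in 3 members (HERPUD1, HYOU1 and SDF2L1), against 0.0696% of all symbols. The UPRE letters TGACGTGG stood in HYOU1 and TXNDC5, against 0.927% of all symbols. The UPRE match in HYOU1 overlaps the second of its ERSE-II matches. The counts over all symbols include the members. Because the members were listed for their part in ER folding and the UPR, these shares describe the list and are no test. The RefSeq gene start lies inside the deposited gene span for HSP90B1, CANX, CALR, CRELD2, PDIA6 and XBP1, so distances are from the RefSeq start, and CANX has 3 such windows. The sites below show the element these genes share, each read 5′ to 3′ on the strand of its gene, with the CCAAT and CCACG boxes or their complements in capitals.
HSPA5, ERSE starting 66 bases before the gene start, chr9:125241379-125241421, minus strand: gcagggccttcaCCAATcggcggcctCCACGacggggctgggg
HSP90B1, ERSE at 194 bases, chr12:103930204-103930246, plus strand: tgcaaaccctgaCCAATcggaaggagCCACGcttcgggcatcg
HSP90B1, second ERSE at 89 bases, chr12:103930309-103930351, plus strand: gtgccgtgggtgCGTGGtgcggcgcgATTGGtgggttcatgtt
CANX, ERSE at 189 bases, chr5:179698766-179698808, plus strand: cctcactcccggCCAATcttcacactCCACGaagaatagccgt
CALR, ERSE at 225 bases, chr19:12938372-12938414, plus strand: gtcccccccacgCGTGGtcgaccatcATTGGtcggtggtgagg
PDIA6, ERSE at 86 bases, chr2:10812841-10812883, minus strand: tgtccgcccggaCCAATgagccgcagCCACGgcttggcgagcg
XBP1, ERSE at 52 bases, chr22:28800591-28800633, minus strand: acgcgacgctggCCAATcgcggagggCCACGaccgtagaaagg
CRELD2, ERSE at 80 bases, chr22:49918542-49918584, plus strand: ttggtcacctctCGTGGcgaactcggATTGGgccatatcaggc
ERO1B, ERSE at 243 bases, chr1:236282171-236282208, minus strand: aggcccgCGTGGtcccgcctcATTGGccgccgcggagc
HYOU1, ERSE-II at 79 bases, chr11:119057262-119057296, minus strand: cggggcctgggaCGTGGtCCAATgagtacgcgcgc
HYOU1, second ERSE-II at 185 bases, chr11:119057368-119057402, minus strand: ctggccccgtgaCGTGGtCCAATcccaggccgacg
SDF2L1, ERSE-II at 188 bases, chr22:21642102-21642136, plus strand: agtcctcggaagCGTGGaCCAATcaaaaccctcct
HERPUD1, ERSE-II at 117 bases, chr16:56932013-56932047, plus strand: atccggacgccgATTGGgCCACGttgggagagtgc

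Levels are FPKM as deposited (mapped fragments scaled by transcript length and by the size of the library), a scale per transcript length on which genes can be compared within a library. The values of a library summed to between 276690 and 302243, and 8890 genes in vehicle, 10925 in rhFGF19 50 and 10894 in rhFGF19 100 had at least 1 FPKM. FPKM hold no read counts and their low values showed no steps of whole reads, so depth is unknown and no counting interval can be given. Of 13 stellate cell markers 9 had at least 1 FPKM in every library, with VIM at 439 in vehicle and COL1A1 at 78.4, whereas LRAT was listed at 0 in all 3 libraries, DES and HGF were below 0.1 and COL1A2 reached at most 0.14. The 6 endothelial markers summed to 1.07 FPKM at most, and the 8 hepatocyte markers to between 11.4 and 12.6, nearly all from SERPINA1 and ALB. The 5 epithelial markers listed summed to 122 in vehicle and 82.9 and 79.6 with rhFGF19, of which KRT8 made up nearly all, and the 4 blood cell markers to 52.0, 47.0 and 42.4, mostly CD68. Their part in the results below was not tested.

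The ER folding genes were well expressed in all 3 libraries. At least 1 FPKM was listed for 30 members in vehicle and for 33 at each dose, and the median member had 14.1 FPKM in vehicle, 18.7 in rhFGF19 50 and 18.1 in rhFGF19 100. The lectin chaperone CALR (calreticulin) and the disulfide isomerase P4HB had the highest values in every library and together made up 58.3% of the members' summed FPKM in vehicle, 42.7% in rhFGF19 50 and 42.2% in rhFGF19 100. The lowest were the sensor kinase EIF2AK3 and the oxidase ERO1B. All 34 members are annotated with the endoplasmic reticulum in the deposited table, 18 with its lumen and 24 with its membrane. They lie on 18 chromosomes, and the closest pair, SSR1 and TXNDC5 on chromosome 6, is 534 kb apart.

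**Figure D1:**
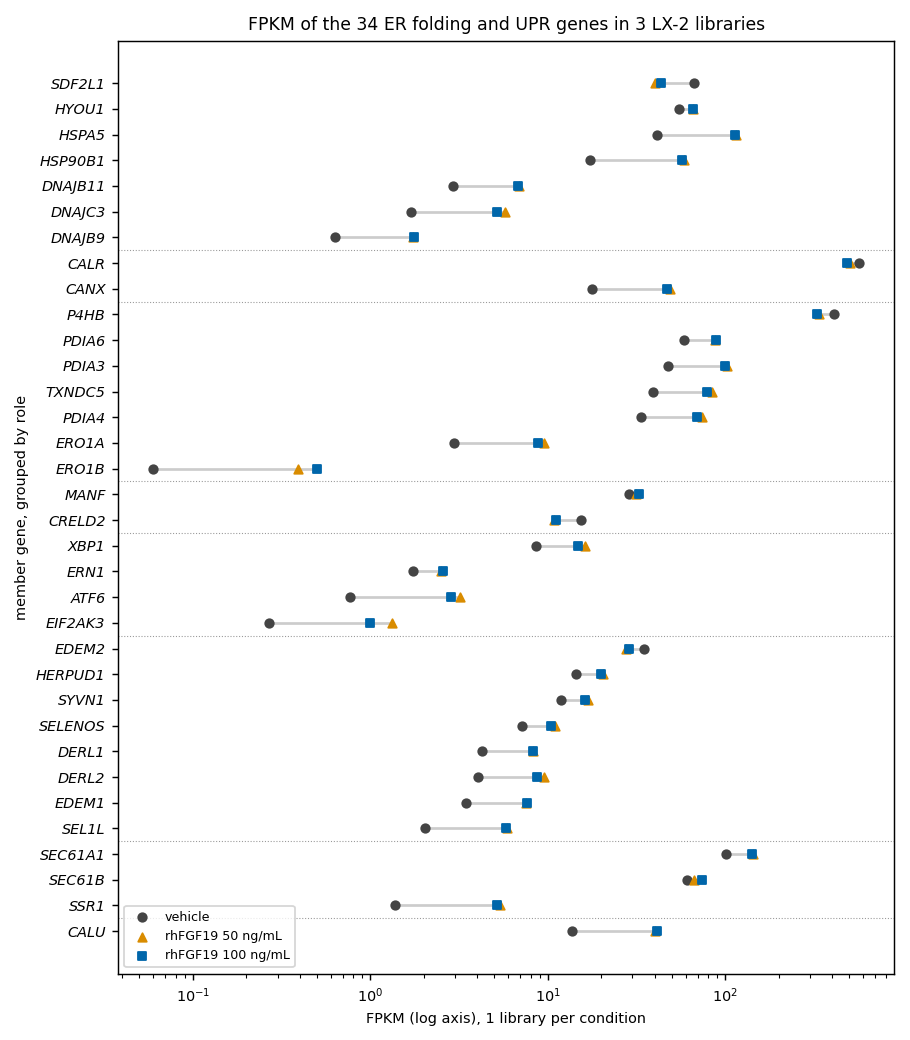
FPKM (log axis) of each of the 34 members in the vehicle (circles), rhFGF19 50 (triangles) and rhFGF19 100 (squares) libraries, grouped by role, with a line joining the lowest and highest value. CALR and P4HB are the highest in every library, from 331 to 568 FPKM, and the symbols of both doses lie close together for nearly every gene.

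Fold changes are on the log2(FPKM + 0.1) scale, where changes of low genes come out too small, for symbols whose mean over the 3 libraries was at least 0.5 FPKM. 33 of the 34 members passed this filter among 12422 symbols. ERO1B did not, with 0.06 FPKM in vehicle, 0.39 in rhFGF19 50 and 0.50 in rhFGF19 100. In rhFGF19 50, 17 of the 33 members (51.5%) exceeded the vehicle value more than 2-fold, beside 39.5% of all symbols. None was more than 2-fold lower, beside 1.75% of all symbols. In rhFGF19 100, 17 of 33 were again more than 2-fold higher, beside 38.6% of all symbols, and 0 were lower, beside 1.47%. Both comparisons share the vehicle library. The median log2 fold change of the members was 1.11 in rhFGF19 50 and 1.01 in rhFGF19 100, against 0.62 and 0.62 over all symbols. Members ran from -0.74 to 1.94 in rhFGF19 50 and from -0.63 to 1.85 in rhFGF19 100. At each dose 5 of them lay below 0, and the lower quartile of all symbols was -0.29 and -0.27. The members above the median of all symbols were 19 of 33 at each dose.

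**Figure D2:**
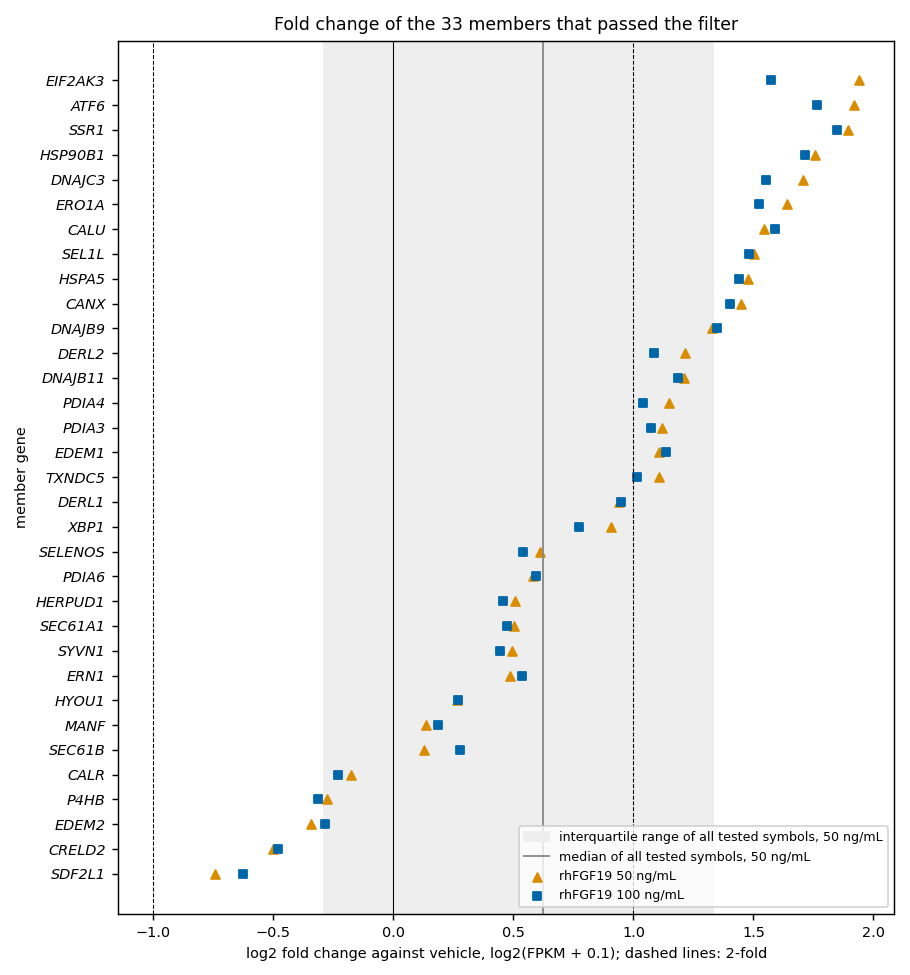
Log2 fold change against vehicle of the 33 members that passed the filter, in rhFGF19 50 (triangles) and rhFGF19 100 (squares), with dashed lines at 2-fold, the median of all tested symbols (grey line, 0.62) and their interquartile range (grey band). The members spread from SDF2L1 at -0.74 to EIF2AK3 at 1.94, and 17 lie past 2-fold at each dose.

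Among the Hsp70 and Hsp90 chaperones of the ER and their partners, 5 of 7 were more than 2-fold higher at each dose, beside 39.5% and 38.6% of all symbols. HSPA5 (ENSG00000044574, chr9:125234853-125241343, GRCh38 as all gene positions here), the Hsp70 chaperone BiP that holds the sensors inactive, had 41.5 FPKM in vehicle, 116 in rhFGF19 50 and 113 in rhFGF19 100. The rhFGF19 values were 2.79 and 2.72 times the vehicle value, with log2 fold changes of 1.48 and 1.44, and among the 34 members HSPA5 went from rank 9 in vehicle to rank 4 at each dose. HSP90B1 (ENSG00000166598, chr12:103930107-103947927), the ER Hsp90 known as GRP94, had 17.3, 58.5 and 56.9 FPKM in vehicle, rhFGF19 50 and rhFGF19 100, with log2 fold changes of 1.76 and 1.71. The J-domain proteins, which stimulate the ATPase of HSPA5, were low in vehicle and more than 2-fold higher with rhFGF19. DNAJC3 (ENSG00000102580) had 1.70, 5.77 and 5.18 FPKM, DNAJB11 (ENSG00000090520) had 2.93, 6.92 and 6.80, and DNAJB9 (ENSG00000128590) had 0.63, 1.73 and 1.76. HYOU1 (ENSG00000149428), the nucleotide exchange factor known as GRP170, differed less, with 54.5, 65.5 and 65.7 FPKM and log2 fold changes of 0.26 and 0.27. SDF2L1 (ENSG00000128228, chr22:21642302-21644299), a partner of DNAJB11, went the other way, with 66.9 FPKM in vehicle, 39.9 in rhFGF19 50 and 43.3 in rhFGF19 100 and log2 fold changes of -0.74 and -0.63, the lowest of the members at each dose. It was 4th among the 34 members in vehicle and 14th and 13th with rhFGF19.

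The lectin chaperones CANX and CALR bind the same sugar chains on folding glycoproteins, CANX in the membrane and CALR in the lumen, yet their mRNAs differed in direction. CANX (ENSG00000127022, chr5:179678628-179730925) had 17.8, 48.8 and 47.2 FPKM in vehicle, rhFGF19 50 and rhFGF19 100, with log2 fold changes of 1.45 and 1.40. CALR (ENSG00000179218, chr19:12938578-12944489) had 568, 502 and 484 FPKM, with log2 fold changes of -0.18 and -0.23. The ratio of CANX to CALR was 0.0314 in vehicle, 0.0972 in rhFGF19 50 and 0.0975 in rhFGF19 100, and that of HSPA5 to CALR was 0.073, 0.23 and 0.233. Since these ratios are within a library, they do not depend on how the libraries were scaled to each other. They do hold any trend that differs between genes, such as that on GC content described below. In rhFGF19 50 that trend was 1.22 at the GC content of CANX, 1.18 at that of HSPA5 and 0.063 at that of CALR.

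Of the disulfide isomerases and oxidases, 4 of the 6 past the filter were more than 2-fold higher at each dose, beside the same 39.5% and 38.6% of all symbols. PDIA3 (ENSG00000167004), the partner of the lectin chaperones, had 47.3 FPKM in vehicle, 103 in rhFGF19 50 and 99.5 in rhFGF19 100, with log2 fold changes of 1.12 and 1.07. Its processed pseudogene PDIA3P1 was listed at 1.94, 5.69 and 4.12 FPKM, and reads of such copies may be shared. PDIA4 (ENSG00000155660, chr7:149003062-149028662) had 33.5, 74.3 and 68.9 FPKM, with log2 fold changes of 1.15 and 1.04. TXNDC5 (ENSG00000239264), an isomerase with several thioredoxin domains, had 39.0, 84.0 and 78.8 FPKM, with log2 fold changes of 1.11 and 1.01, at the edge of 2-fold. The read-through transcript BLOC1S5-TXNDC5 on its strand was listed at 0, 3.94 and 4.60 FPKM, and how reads were divided between them is not given in the sources used here. ERO1A (ENSG00000197930), the oxidase that recharges the isomerases, had 2.98, 9.51 and 8.76 FPKM, with log2 fold changes of 1.64 and 1.52. The isomerases with the highest levels in vehicle differed least. PDIA6 (ENSG00000143870) had 58.5, 87.6 and 88.5 FPKM, with log2 fold changes of 0.58 and 0.60, and P4HB (ENSG00000185624, chr17:81843161-81860624), which is also the beta subunit of collagen prolyl 4-hydroxylase, had 411, 339 and 331 FPKM, with -0.28 and -0.31.

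MANF and CRELD2 are small ER proteins that can be secreted under stress and are known UPR targets. MANF (ENSG00000145050) had 28.6, 31.4 and 32.6 FPKM in vehicle, rhFGF19 50 and rhFGF19 100, with log2 fold changes of 0.13 and 0.19. CRELD2 (ENSG00000184164) had 15.5, 10.9 and 11.1 FPKM, with log2 fold changes of -0.50 and -0.48. Neither passed 2-fold.

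The sensors ATF6 and EIF2AK3 had low levels and the largest fold changes of all the members in rhFGF19 50. ATF6 (ENSG00000118217, chr1:161766320-161964070) was listed at 0.77 FPKM in vehicle, 3.19 in rhFGF19 50 and 2.86 in rhFGF19 100, with log2 fold changes of 1.92 and 1.77. EIF2AK3 (ENSG00000172071, chr2:88556741-88627464) was listed at 0.27, 1.32 and 1.0 FPKM, with 1.94 and 1.57. Values this low are less certain than their 2 decimals show, and EIF2AK3 was the member on which the doses differed most. ERN1 (ENSG00000178607), the third sensor, had 1.75, 2.49 and 2.58 FPKM, with 0.49 and 0.53. XBP1 (ENSG00000100219), the transcription factor whose mRNA is spliced by IRE1, had 8.59, 16.2 and 14.8 FPKM. Its log2 fold changes were 0.91 and 0.77, within 2-fold at each dose. The deposited table holds 1 value per gene, so spliced and unspliced XBP1 were not told apart.

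Of the ER-associated degradation (ERAD) genes, 3 of 8 were more than 2-fold higher at each dose, a share near that of all symbols (39.5% and 38.6%). SEL1L (ENSG00000071537), the scaffold of the ubiquitin ligase SYVN1, had 2.02, 5.91 and 5.82 FPKM in vehicle, rhFGF19 50 and rhFGF19 100, with log2 fold changes of 1.5 and 1.48. EDEM1 (ENSG00000134109), which marks misfolded glycoproteins for removal, had 3.44, 7.53 and 7.68 FPKM, with 1.11 and 1.14. DERL2 (ENSG00000072849), a membrane channel component, had 4.03, 9.49 and 8.67 FPKM, with 1.22 and 1.09. The other five differed less. DERL1 (ENSG00000136986) lay just inside 2-fold, with 4.24, 8.22 and 8.28 FPKM and log2 fold changes of 0.94 and 0.95. SELENOS (ENSG00000131871), which recruits the ATPase that extracts substrates, had 7.12, 10.9 and 10.4 FPKM, HERPUD1 (ENSG00000051108) had 14.5, 20.6 and 19.9, and SYVN1 (ENSG00000162298) had 11.9, 16.8 and 16.2. SYVN1 overlaps FAU on its strand, which had 531, 318 and 332 FPKM, and MRPL49 on the other strand, so its value is less certain. EDEM2 (ENSG00000088298) was lower with rhFGF19, with 35.0, 27.6 and 28.7 FPKM and log2 fold changes of -0.34 and -0.29. EDEM1 and EDEM2, of the same family, thus lay on opposite sides of 0.

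In the translocon, the channel subunits SEC61A1 (ENSG00000058262) and SEC61B (ENSG00000106803) were high in all libraries, at 101, 144 and 141 FPKM and at 61.2, 66.8 and 74.1 FPKM in vehicle, rhFGF19 50 and rhFGF19 100. Their log2 fold changes stayed between 0.13 and 0.50. SSR1 (ENSG00000124783), a subunit of the translocon-associated protein complex, had 1.37, 5.37 and 5.19 FPKM, with log2 fold changes of 1.90 and 1.85. Among the members that passed the filter, its change was the largest in rhFGF19 100. A gene overlapping it on the same strand, AL139095, was listed at 14.7, 7.67 and 9.21 FPKM. How reads were divided between them is not given in the sources used here, so the SSR1 value is less certain. CALU (ENSG00000128595), a calcium-binding protein of the secretory pathway, had 13.7, 40.2 and 41.4 FPKM, with 1.54 and 1.59.

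The members' summed FPKM was 1678 in vehicle, 1971 in rhFGF19 50 and 1931 in rhFGF19 100, which was 0.555%, 0.712% and 0.686% of all FPKM. CALR and P4HB together had 978, 841 and 815 FPKM, while the other members had 699.9, 1129.8 and 1116 FPKM. The sum thus combined a pair of very high genes that were slightly lower with rhFGF19 and many lower genes that were mostly higher.

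**Figure D3:**
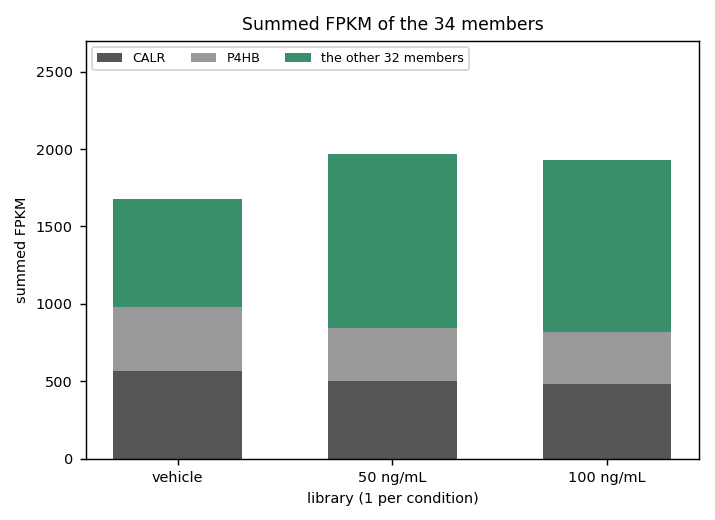
Summed FPKM of the 34 members in each library, split into CALR, P4HB and the other members (1 library per condition, no error bars). The total is 1678 in vehicle, 1971 in rhFGF19 50 and 1931 in rhFGF19 100, of which CALR and P4HB make up 978, 841 and 815.

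The rhFGF19 libraries hardly differed from each other in these genes. Their log2 values differed by less than 0.2 for 32 of the 33 members, beside 77.5% of all symbols, the exception being EIF2AK3 at -0.37 (rhFGF19 100 minus rhFGF19 50). The SD of this difference was 0.0933 over the members and 0.324 over all symbols. The symbols were not matched for level, and the members were mostly among the higher ones. In vehicle, 77.7% of tested symbols lay below HERPUD1, which ranked 17th of the 34 members. EIF2AK3 had the lowest values of the tested members. None of the members lay more than 2-fold apart between the doses, beside 1.64% of all symbols.

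The members' fold changes went with the GC content of their transcripts, taken as the median over a gene's listed transcripts. Over the 33 members, which share the 3 libraries, the Spearman correlation of GC content with the log2 fold change was -0.88 in rhFGF19 50 and -0.87 in rhFGF19 100, and over all 12374 symbols with a GC value it was -0.77 and -0.78. Between the doses it was 0.34 over the members and 0.068 over all symbols. Of the 13 members below 45% GC, 12 were more than 2-fold higher in rhFGF19 50, beside 85.5% of all symbols in that range. Of the 14 members from 45% to 55%, 5 were, beside 40.1% of all symbols. Of the 6 members of at least 55%, HYOU1, SDF2L1, CALR, P4HB, CRELD2 and SYVN1, 0 were, beside 3.98% of all symbols. In rhFGF19 100 the counts were again 12, 5 and 0, beside 84.4%, 39.1% and 3.38% of all symbols. The opposite directions of CANX and CALR went with GC contents of 45.6% and 55.4%, and those of DNAJB11 and SDF2L1 with 43.2% and 66.2%. The members' median GC content was 48.6%, and that of all symbols 51.2%. There is 1 vehicle library, so a property of that library and a response to rhFGF19 cannot be told apart.

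**Figure D4:**
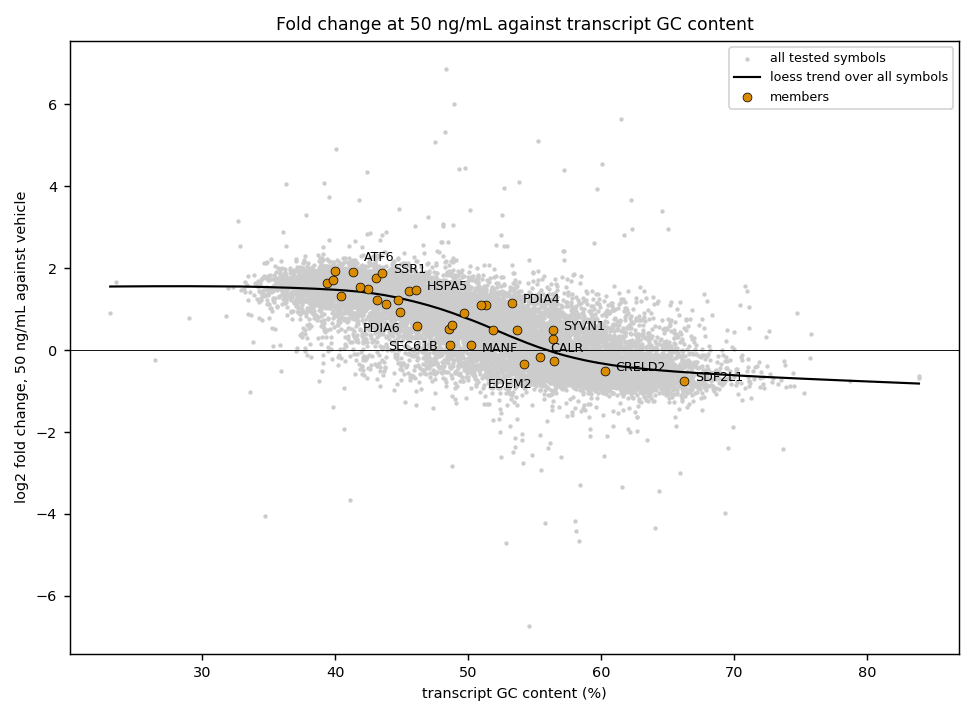
Log2 fold change in rhFGF19 50 against transcript GC content (%) for all tested symbols (grey points) and the 33 members (orange points), with the loess trend over all symbols (line). The members lie on both sides of the trend and descend with it, from ERO1A, the lowest in GC (39.4%), at 1.64 to SDF2L1, the highest in GC (66.2%), at -0.74.

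When the trend on GC content over all symbols was subtracted, 0 of the 33 members were more than 2-fold higher in rhFGF19 50, beside 3.74% of all symbols, and 0 were lower, beside 5.03%. The same counts of 0 were found in rhFGF19 100, beside 3.31% and 4.49%. The members' median was then 0.099 in rhFGF19 50 and 0.034 in rhFGF19 100, with 17 members above and 16 below 0 at each dose. PDIA4 lay highest above symbols of its GC content, by 0.82 and 0.72, followed in rhFGF19 50 by SSR1 (0.54 and 0.51), SYVN1 (0.54 and 0.48) and TXNDC5 (0.52 and 0.44). HSPA5 lay above by 0.30 and 0.28 and HSP90B1 by 0.38 and 0.36. SEC61B lay lowest at each dose, at -0.80 and -0.64, and the next lowest were MANF (-0.60 and -0.53), PDIA6 (-0.59 and -0.55) and EDEM2 (-0.55 and -0.48). The fold changes of DNAJB9, DNAJB11, PDIA3 and DERL2 were past 2-fold as deposited and lay below 0 on this scale at both doses. Thus the isomerases PDIA4 and PDIA6 lay on opposite sides of 0, although both had higher FPKM with rhFGF19 as deposited.

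**Figure D5:**
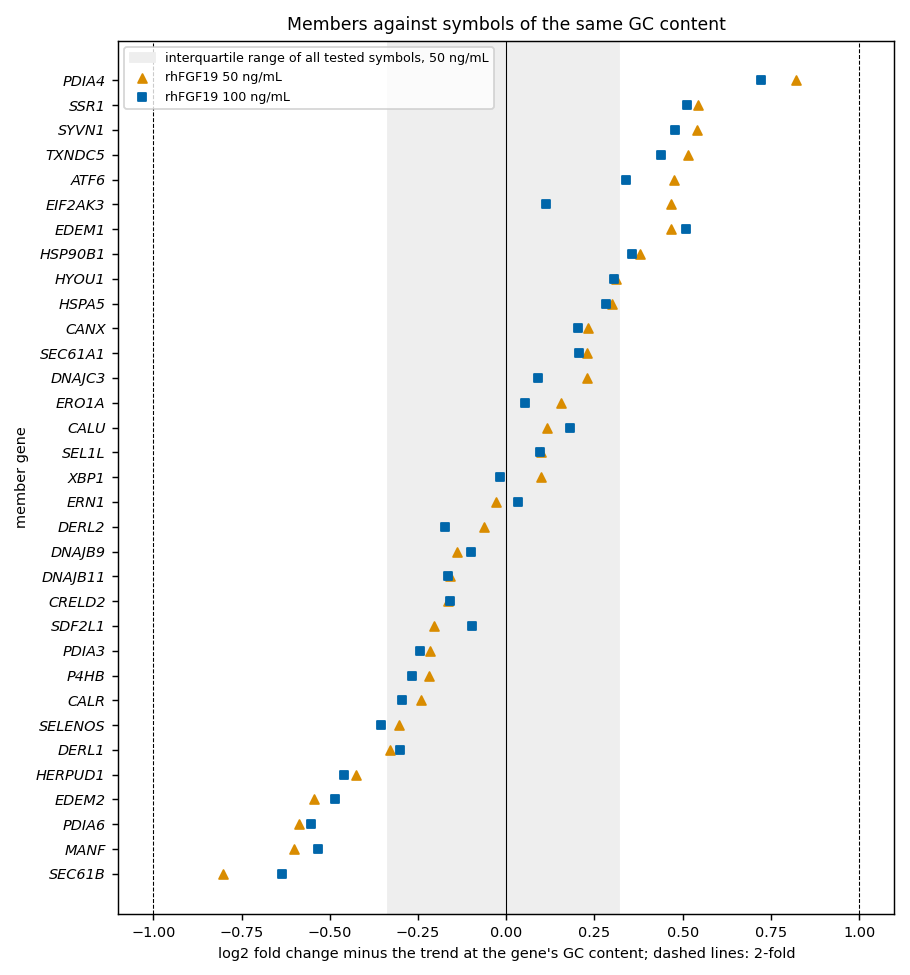
Log2 fold change of the 33 members minus the loess trend at each gene's GC content, in rhFGF19 50 (triangles) and rhFGF19 100 (squares), with dashed lines at 2-fold and the interquartile range of all tested symbols (grey band). No member lies past 2-fold, and the members run from SEC61B at -0.80 to PDIA4 at 0.82 in rhFGF19 50.

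The members with an ERSE in their promoter window, whose sites are printed above, lay on both sides of 0. Of the 7 that passed the filter, HSP90B1, HSPA5 and CANX were more than 2-fold higher at each dose, XBP1 and PDIA6 were higher by less than that, and CALR and CRELD2 lay below 0. Their median log2 fold change was 0.91 in rhFGF19 50 and 0.77 in rhFGF19 100. For the 21 members with neither ERSE nor ERSE-II letters it was 1.15 and 1.09, and 13 of these 21 were more than 2-fold higher at each dose, beside 39.5% and 38.6% of all symbols. With the GC trend subtracted, the medians were 0.099 and -0.017 with an ERSE and 0.12 and 0.090 with neither. The groups also differed in level, with a median in vehicle of 17.8 FPKM with an ERSE and 4.03 with neither. Only exact letters inside the window were counted, and the part of the element in these differences was not tested. The 3 members with ERSE-II letters stayed within 2-fold.

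Other genes of the same pathways, from lists set by function, are given for comparison, beside 39.5% of all symbols more than 2-fold higher in rhFGF19 50 and 38.6% in rhFGF19 100. The highest and lowest gene of each list are by the mean of both doses. Of 30 other ER folding enzymes past the filter, 15 were more than 2-fold higher in rhFGF19 50 and 13 in rhFGF19 100, with 0 lower. The highest was the peroxidase GPX8, at 1.61, 7.51 and 7.38 FPKM in vehicle, rhFGF19 50 and rhFGF19 100, and the lowest the selenoprotein SELENOM, at 41.2, 22.8 and 25.2. Of 23 other ERAD genes 11 were higher at each dose, from UBXN4 with a log2 fold change of 1.68 in rhFGF19 50 to MAN1B1 with -0.80. Of 33 other genes of translocation, signal peptide removal and N-glycan transfer, 18 and 19 were higher, from SRP54 with 2.11 to SSR4 with -0.83. SSR4 and SSR1, subunits of the same complex, thus lay on opposite sides of 0, with 60.1% and 43.5% GC. Of 19 other genes listed under UPR signalling, which include eIF2α kinases other than PERK, 9 were higher at each dose. The list ran from one of these kinases, EIF2AK2, with 1.92 to TRAF2 with -0.53. Of the 4 other members of the CALU family, RCN1 and RCN2 were more than 2-fold higher at each dose, and RCN3 was lowest, with -0.93 and -1.11, past 2-fold in rhFGF19 100.

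The output genes of PERK and ATF4, which respond when the UPR slows translation, had the lowest median of these lists as deposited and a median GC content of 56.7%. Of 13 past the filter, 5 were more than 2-fold higher in rhFGF19 50 and 4 in rhFGF19 100. These were 38.5% and 30.8% of the list, beside 39.5% and 38.6% of all symbols, so the share in rhFGF19 50 was near that of all symbols. The median log2 fold change of the list was 0.19 and 0.24, below that of all symbols. ATF4 itself had 100.1, 113 and 118 FPKM, and DDIT3, the stress factor CHOP, had 25.4, 36.2 and 33.6. By that mean the highest was ASNS (1.77, 7.25 and 6.50 FPKM) and the lowest CHAC1 (19.8, 13.6 and 12.4 FPKM). Cytosolic and mitochondrial chaperones, compared as folding genes outside the ER, had 16 of 24 higher in rhFGF19 50 and 15 in rhFGF19 100. These were 66.7% and 62.5%, beside the same 39.5% and 38.6% of all symbols. The log2 fold changes in rhFGF19 50 ran from CCT8 with 2.06 to TRAP1 with -0.66. With the GC trend subtracted, the medians in rhFGF19 50 and rhFGF19 100 were -0.0069 and 0.00053 for the other ER folding enzymes, -0.033 and -0.042 for the other ERAD genes and 0.011 and -0.013 for the translocation genes. They were 0.074 and 0.064 for UPR signalling, -0.025 and 0.13 for the PERK and ATF4 output genes, 0.044 and -0.0076 for the CALU family and 0.27 and 0.22 for the chaperones outside the ER. The PERK and ATF4 output genes were thus not the lowest list at either dose on this scale. With 1 library per condition the differences between these lists were not tested.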

How the data were processed

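Poly(A) RNA of LX-2 cells was sequenced in paired ends, and the authors mapped the reads with HISAT2. The submitters' processing notes name HISAT2 2.0, StringTie 1.3.0 and Bowtie 0.12.2. The authors deposited FPKM to 2 decimals for 26108 genes, with 1 column per library. How the genes were chosen is not given in the sources used here. The notes list builds that do not match the positions, which overlapped GRCh38 (GENCODE release 29) for 99.9% of the 25531 identifiers found there and for all 34 members.

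Rows sharing a symbol were summed. Differences of log2(FPKM + 0.1) between single libraries were computed for symbols averaging at least 0.5 FPKM, and more than 2-fold was counted, the criterion of the study. FPKM hold no counts, so no test was run and precision is unknown. GC content and length were taken from GENCODE sequences of a gene's listed transcripts, as medians. Trends were fitted by loess with a span of 0.3. Members and lists, and the naming rule (all members, and of each other list the genes with the highest and lowest mean log2 fold change) were chosen with earlier results of these data known. ATF4, DDIT3, RCN2 and the comparison of SSR4 with SSR1 were added after their values were seen. In the alternatives, a fold change or median was taken to have moved when it differed by more than 0.324, the SD over all symbols of the difference between the rhFGF19 libraries. The alternatives were 9 set with the design and 1 added later, and the procedure was run on simulated data. The simulation planted changes at random over GC content, with a straight trend and less spread than these data. It therefore does not measure precision here. Python 3.11.15, NumPy 2.4.6, pandas 2.3.3, SciPy 1.17.1, statsmodels 0.14.6 and matplotlib 3.10.9 were used.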

Additional observations from a re-analysis of the deposited data

How the results depend on the processing

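The 17 members more than 2-fold higher at each dose became 11 at each dose with the median ratio of expressed genes set to 0, and 14 in rhFGF19 50 and 11 in rhFGF19 100 with a pseudocount of 1. The shares were then 33.3% of members beside 30.4% and 29.7% of all symbols with the median ratio set to 0, and 42.4% and 33.3% beside 17.6% and 16.7% with a pseudocount of 1. With the trend on transcript length removed, 5 were higher in rhFGF19 50 and 4 in rhFGF19 100. These were 15.2% and 12.1% of members, beside 14.0% and 13.5% of all symbols. On that scale 1 member was lower at each dose, beside 16.3% and 15.2% of all symbols. With a 1.5-fold threshold 20 were higher at each dose (60.6%, beside 51.0% and 50.8% of all symbols). At that threshold 1 was lower at each dose, beside 13.5% and 12.5% of all symbols. With the GC trend removed the count of higher members was 0 at each dose, beside 3.74% and 3.31% of all symbols. With the GC and length trends removed, an alternative chosen after seeing the data, it was also 0, beside 3.94% and 3.48%. The members' median log2 fold change of 1.11 in rhFGF19 50 and 1.01 in rhFGF19 100 became 0.56 and 0.53 without the length trend, 0.099 and 0.034 without the GC trend and 0.066 and -0.011 without either. Removing a trend centres all symbols near 0, so part of these shifts follows from the construction. Beyond that the cause was not tested. The share of higher among all symbols past 2-fold was 95.8% in rhFGF19 50 as deposited, 82.9% with the median ratio set to 0, 42.7% without the GC trend and 46.1% without the length trend.

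Among members past 2-fold, the log2 fold change changed sign with the GC trend removed in DERL2 (-0.064 in rhFGF19 50 and -0.17 in rhFGF19 100), DNAJB11 (-0.16 and -0.16), DNAJB9 (-0.14 and -0.10) and PDIA3 (-0.22 and -0.24). With both trends removed it did in DNAJB11 (-0.23 and -0.23), DNAJB9 (-0.037 and -0.011) and PDIA3 (-0.16 and -0.18), in CALU in rhFGF19 50 (-0.0017), and in rhFGF19 100 in DERL2 (-0.11), DNAJC3 (-0.063) and EIF2AK3 (-0.0029). Without a filter, with a mean of at least 1 FPKM, with TPM and with the highest row per symbol, each count stayed within 1.5 times. No paired analysis was possible because each condition had 1 library. FPKM give no depth, so the low values of EIF2AK3, DNAJB9, ATF6 and ERO1B carry an unknown counting error.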
